A study of Mus musculus with 20 samples.

Results

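The Zscan4 cluster of the mouse is a group of near-identical genes on chromosome 7 that encode zinc finger proteins with a SCAN domain. The members were the rows of the 5 comparison tables whose gene symbol is Zscan4 followed by 1 letter from a to f. Of the 6 genes this names, 5 were analysed here (Zscan4a, Zscan4b, Zscan4c, Zscan4d and Zscan4f) among 24411 genes per table, and Zscan4e was not analysed here.

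The study followed poly(A) RNA from the egg to the 2-cell embryo in 20 samples, each a batch of 10 to 15 untreated oocytes or embryos. Oocytes were held in meiotic arrest with dbcAMP, released and matured in culture, and all embryos were made by in vitro fertilization and grown in KSOM medium at reduced oxygen. The C57BL/6J groups were MII eggs (arrested in the second meiotic metaphase), G1 zygotes, G2 zygotes and 2-cell embryos in G2, with 3 samples each. The F1 hybrid groups, labelled B6CASTF1, held 3 samples each of zygotes in G1 and in G2 and, as used here, 2 samples of 2-cell embryos in G2, although the design text speaks of triplicates. Counting that group as 3 samples lowers the B6CASTF1 levels given here to 0.808 to 0.846 of their values. The sources used here give neither the direction of the hybrid cross nor the age of the mice or the number of females behind a sample. The p-values therefore reflect only how much these samples varied, which may be technical.

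Zscan4 genes are known as a hallmark of the late 2-cell embryo, where they are transcribed for a short time, and of the rare embryonic stem cells that pass through a 2-cell-like state. The protein joins an N-terminal SCAN domain, through which such factors dimerize, to zinc fingers at the C-terminus that bind DNA. It is known for the upkeep of telomeres and genome stability in stem cells, and for binding the maintenance methylation machinery of UHRF1 and DNMT1.

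In the reference annotation (GENCODE M21, build GRCm38) the lettered genes spanned 608 kb, from Zscan4a (chromosome 7, 10794242 to 10799057, minus strand) to Zscan4f (11397915 to 11402318, plus strand). Between them lay Zscan4b (10900740 to 10905050, minus strand), Zscan4c (11005745 to 11010547, plus strand), Zscan4d (11161374 to 11166159, minus strand) and Zscan4e (11306378 to 11310682, minus strand). A further 3 loci, Zscan4-ps1 to Zscan4-ps3, made 9 Zscan4 loci in all. The annotation listed these 3 as protein-coding despite their pseudogene names and Zscan4a as an unprocessed pseudogene. It gave a coding sequence of 1518 bases for Zscan4c, Zscan4d and Zscan4f and of 1515 bases for Zscan4b. Every one of the 9 loci had 4 exons, and the longest transcripts of the 5 analysed genes measured 2279 bases (Zscan4a), 1779 (Zscan4b), 2276 (Zscan4c), 2272 (Zscan4d) and 1829 (Zscan4f).

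The analysed transcripts were 96.6% to 99.6% identical over their aligned bases in 10 pairs, with a median of 97.6%. Zscan4c and Zscan4f were the closest pair, at 99.6%. Of the 31-base words of each transcript, 35.0% were found in no other annotated gene for Zscan4d and 23.3% for Zscan4a, but 8.46% for Zscan4c, 4.92% for Zscan4b and 2.39% for Zscan4f. Zscan4f shared 87.5% of its words with Zscan4c and 90.2% with Zscan4-ps2, so reads of Zscan4f in particular could be assigned to another copy. Zscan4b was 99.7% identical to Zscan4e and shared 88.3% of its words with it. The values of single members are therefore uncertain as measures of single genes, and sums over the members are given beside them. Those sums leave out Zscan4e and Zscan4-ps1 to Zscan4-ps3. Reads shared with these loci could therefore change the sums as well.

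**Figure D1:**
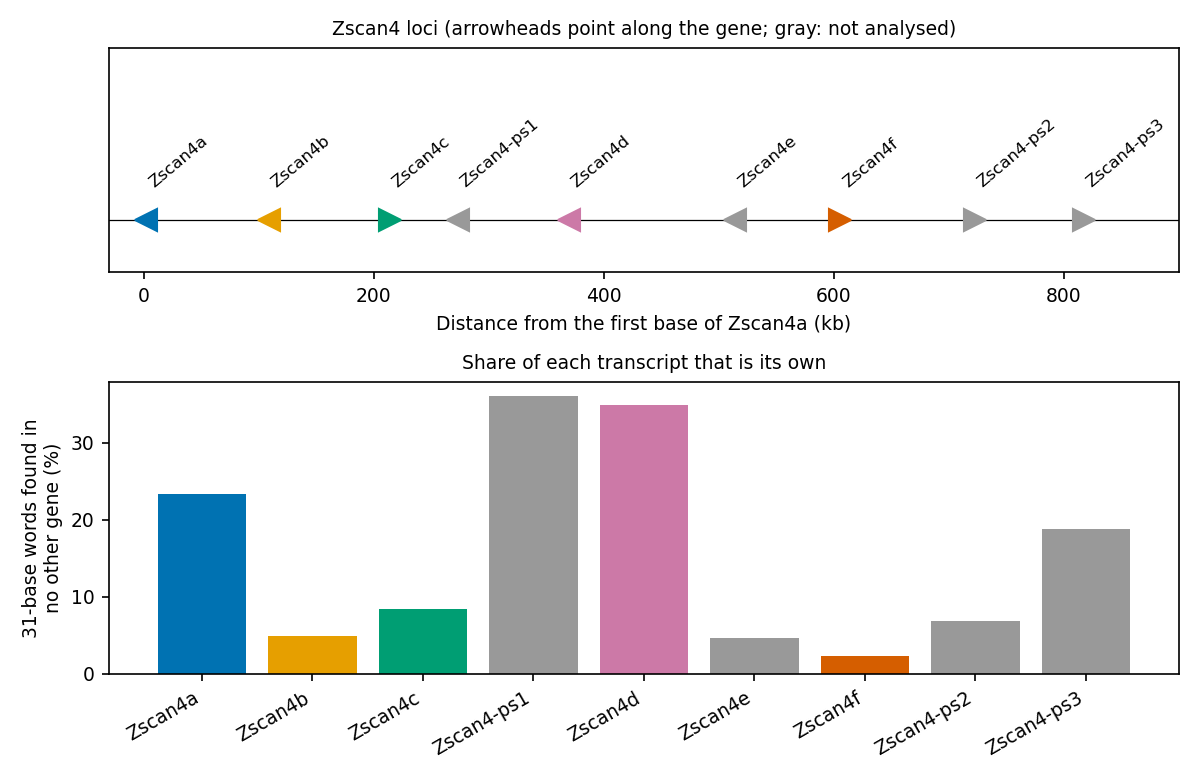
The upper panel places the 9 annotated Zscan4 loci by distance in kb from the first base of Zscan4a, with arrowheads along the direction of the gene and unanalysed loci in gray. The bars of the lower panel give the percent of each transcript's 31-base words found in no other annotated gene, from 36.1% for Zscan4-ps1 and 35.0% for Zscan4d to 2.39% for Zscan4f.

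The promoters were near-identical too. RefSeq windows (build GRCm38.p6) of 250 bases before to 50 bases after the gene start were found for 4 of the 5 analysed members, and their 6 pairs were 95.3% to 99.3% identical over 266 to 300 aligned bases. The 250 bases before the start are shown, each on the strand of its gene, because they bear the letters shared by all 4 copies. Capitals mark TATAAA, the TATA box, and TGACCTTG, which is CAAGGNCA on the opposite strand. The windows are chr7:10905051-10905300 (Zscan4b, minus strand), chr7:11005495-11005744 (Zscan4c, plus strand), chr7:11166149-11166398 (Zscan4d, minus strand) and chr7:11397665-11397914 (Zscan4f, plus strand).
Zscan4b: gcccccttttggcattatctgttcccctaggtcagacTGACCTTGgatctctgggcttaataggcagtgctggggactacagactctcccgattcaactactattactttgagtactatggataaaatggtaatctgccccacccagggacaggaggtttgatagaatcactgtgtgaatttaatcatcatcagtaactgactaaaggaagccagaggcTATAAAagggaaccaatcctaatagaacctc
Zscan4c: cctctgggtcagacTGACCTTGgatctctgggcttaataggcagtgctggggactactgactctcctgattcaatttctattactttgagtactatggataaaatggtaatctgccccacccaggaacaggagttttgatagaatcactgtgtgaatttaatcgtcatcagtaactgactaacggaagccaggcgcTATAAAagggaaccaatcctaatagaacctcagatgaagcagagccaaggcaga
Zscan4d: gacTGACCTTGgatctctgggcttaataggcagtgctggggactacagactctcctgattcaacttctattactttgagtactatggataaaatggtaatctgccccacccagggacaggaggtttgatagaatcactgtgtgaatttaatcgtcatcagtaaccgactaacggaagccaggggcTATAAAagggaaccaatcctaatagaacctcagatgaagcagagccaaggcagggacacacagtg
Zscan4f: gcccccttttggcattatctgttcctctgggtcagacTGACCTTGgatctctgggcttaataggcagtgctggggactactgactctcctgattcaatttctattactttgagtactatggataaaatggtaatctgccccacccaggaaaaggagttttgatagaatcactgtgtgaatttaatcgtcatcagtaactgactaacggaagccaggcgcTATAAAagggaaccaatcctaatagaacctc
The letters TATAAA stood 31 to 26 bases before the annotated start in Zscan4b and Zscan4f, 54 to 49 before it in Zscan4c and 65 to 60 before it in Zscan4d. On either strand, 13.6% of all 32851 RefSeq windows held TATAAA. The letters CAAGGNCA are a core of the site of nuclear receptors such as NR5A2, which the series names in its title, and were searched for only after these windows had been read. They were found in 4 of 4 members' windows and in 6.71% of all windows, ending 206 bases before the start in Zscan4b and Zscan4f, 229 in Zscan4c and 240 in Zscan4d. The longer form TCAAGGNCA, which contains these letters, matched 0 of the 4 windows and 1.62% of all. GATTNAATC (a core of the site of DUX), GGATTA (bound by OBOX and related homeodomains) and TGCACAC (a reported site of ZSCAN4 itself) matched 0 of the 4, against 0.268%, 7.06% and 4.40% of all windows on either strand. Binding was not measured here.

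Levels per stage were worked out from the authors' mean normalized count of each strain and their fold changes, since values of single samples were not analysed here. Intervals of 95% on these levels rest on the spread that the deposited SE imply, and were added after the data were examined. Each strain was normalized apart from the other. In bulk samples, fewer cells that transcribe a gene and less RNA per cell cannot be told apart.

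The members' summed level was highest at the 2-cell stage in both strains. Eggs were measured in C57BL/6J only, and no member was called between eggs and G1 zygotes. In C57BL/6J the normalized counts of the 5 members summed to 433 in MII eggs, 497 in G1 zygotes, 1376 in G2 zygotes and 5904 in 2-cell embryos, 13.6 times the egg's level. In B6CASTF1 they summed to 587 in G1 zygotes, 1947 in G2 zygotes and 10398 in 2-cell embryos, 17.7 times the level of G1. In C57BL/6J the 2-cell sum was 11.9 times that of G1 zygotes. As a share of all normalized counts, the members went from 0.00212% to 0.0292% in C57BL/6J between egg and 2-cell embryo, and from 0.00290% to 0.0437% in B6CASTF1 between G1 zygote and 2-cell embryo. RNA of the cluster was thus measured in the egg too, where Zscan4a stood at 192 (95% interval 91.5 to 404) and Zscan4b at 17.2 (2.53 to 117).

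Zscan4f, the member with the highest level per kb at the 2-cell stage, stood at 49.1 in C57BL/6J MII eggs, 136 in G1 zygotes, 273 in G2 zygotes and 2560 in 2-cell embryos (95% interval 1038 to 6317). In B6CASTF1 its levels were 115 in G1 zygotes, 684 in G2 zygotes and 4367 in 2-cell embryos (2426 to 7861). The 2-cell intervals lay above those of every earlier stage in both strains. Zscan4a, the copy annotated as a pseudogene, went from 192 to 131, 263 and 1506 over the 4 stages of C57BL/6J, and from 149 to 262 and 1546 over the 3 of B6CASTF1. In both strains its 2-cell interval was likewise apart from all earlier ones.

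Zscan4c was at 105 in C57BL/6J MII eggs, 99.6 in G1 zygotes, 682 in G2 zygotes and 1241 in 2-cell embryos, so its largest ratio between consecutive stages lay within the zygote there. In B6CASTF1 it was at 79.1, 266 and 1646 in G1 zygotes, G2 zygotes and 2-cell embryos. Zscan4d stayed between 69.9 and 95.7 up to the G2 zygote in C57BL/6J and reached 580 in 2-cell embryos, against 196, 676 and 2523 in B6CASTF1. Its 2-cell interval in C57BL/6J (173 to 1948) overlapped those of all earlier stages. In B6CASTF1 the 2-cell interval (1434 to 4436) lay above the earlier ones. The higher Zscan4d level of B6CASTF1 at each shared stage is set across tables normalized separately and was not tested. Zscan4b, the member with the lowest level per kb at every stage, stood at 17.2, 35.7, 65.2 and 16.4 in C57BL/6J and 47.0, 59.1 and 316 in B6CASTF1.

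**Figure D2:**
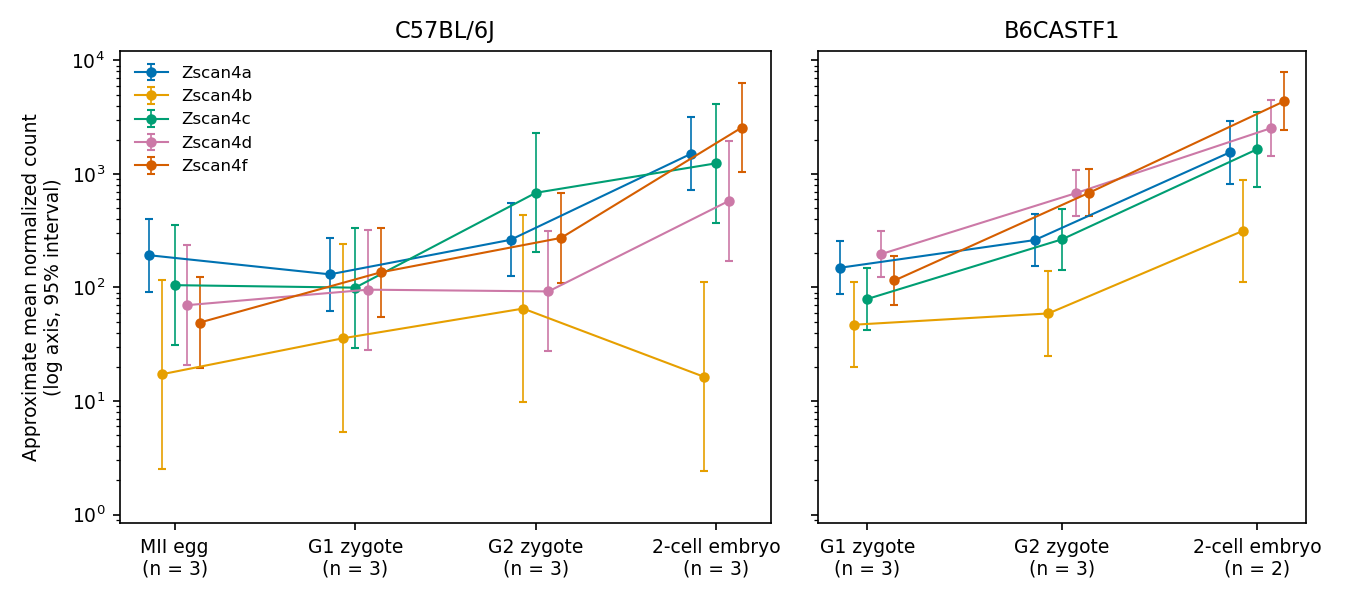
Points give the approximate mean normalized count of each member per stage on a log axis, with bars for 95% intervals from the spread the deposited SE imply, for C57BL/6J (left, 4 stages) and B6CASTF1 (right, 3 stages). Zscan4f reaches 2560 and 4367 at the 2-cell stage, while Zscan4b stays at 16.4 in C57BL/6J and reaches 316 in B6CASTF1.

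Levels of different members were ranked per kb of transcript. In B6CASTF1 2-cell embryos the order of the normalized counts per kb was Zscan4f (2388), Zscan4d (1110), Zscan4c (723), Zscan4a (678) and Zscan4b (178). In C57BL/6J 2-cell embryos it was Zscan4f (1400), Zscan4a (661), Zscan4c (545), Zscan4d (255) and Zscan4b (9.20). The 95% intervals of neighbours in these orders overlapped, except that of Zscan4d (76.0 to 857) and Zscan4b (1.35 to 62.7) in C57BL/6J. In the egg the order per kb was Zscan4a (84.3), Zscan4c (46.1), Zscan4d (30.8), Zscan4f (26.9) and Zscan4b (9.68), and all intervals overlapped.

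The makeup of the cluster's RNA differed by stage, in shares of counts that were not scaled by length and not tested. Zscan4f made up 11.3% of the members' summed count in C57BL/6J eggs, 27.3% in G1 zygotes, 19.9% in G2 zygotes and 43.4% in 2-cell embryos. In B6CASTF1 its share was 19.6%, 35.1% and 42.0% in G1 zygotes, G2 zygotes and 2-cell embryos. The share of Zscan4a was 44.4% in the egg, 25.5% in C57BL/6J 2-cell embryos and 14.9% in those of B6CASTF1. In G2 zygotes Zscan4c made up 49.6% in C57BL/6J but 13.6% in B6CASTF1, and Zscan4d 6.71% against 34.7%. Added together, Zscan4c and Zscan4f, whose transcripts share most of their words, summed to 154, 235, 956 and 3802 over the 4 stages of C57BL/6J. The same pair summed to 194, 950 and 6014 over the 3 stages of B6CASTF1, so the pair's sum in G2 zygotes was 4.06 times that of G1 zygotes in C57BL/6J and 4.89 times in B6CASTF1.

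**Figure D3:**
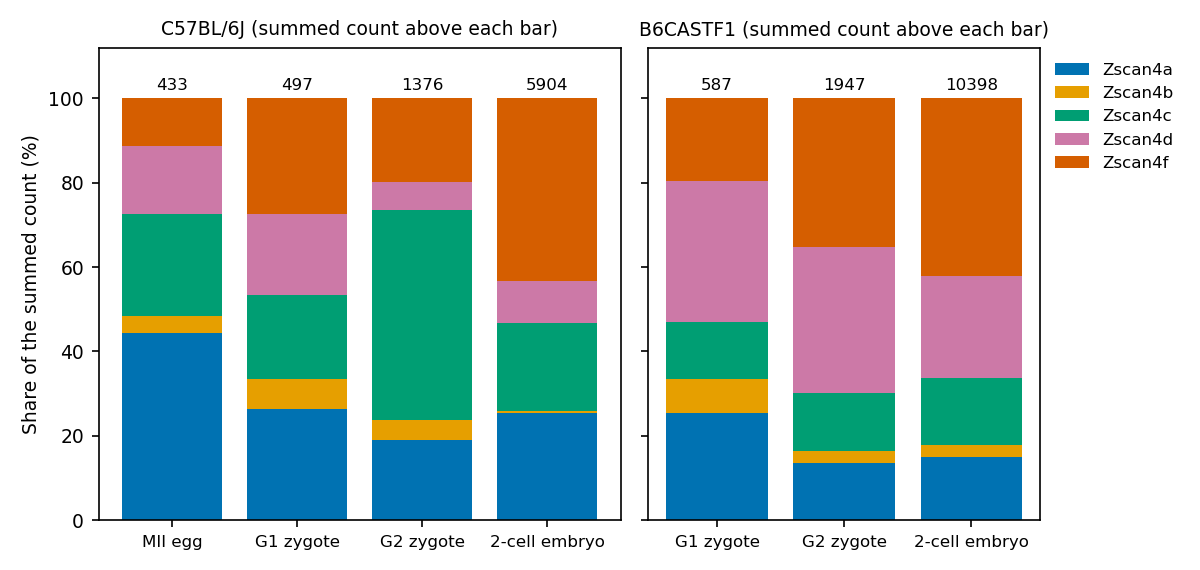
Stacked bars give each member's percent of the members' summed normalized count by stage and strain, with the summed count above each bar. The counts are not scaled by transcript length. The share of Zscan4f goes from 11.3% to 43.4% between eggs and 2-cell embryos of C57BL/6J and from 19.6% to 42.0% between G1 zygotes and 2-cell embryos of B6CASTF1.

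The first test asked whether the cluster's RNA changed upon fertilization, in C57BL/6J G1 zygotes against MII eggs. No member passed the authors' DESeq2 threshold of an adjusted p under 0.05: 0 of 5 rose and 0 fell, and 0 had an unadjusted p under 0.05. Of all 13551 genes tested, 1.62% rose and 1.12% fell. In the authors' deposited table the members' log2 fold changes ran from -0.56 (Zscan4a) to 1.47 (Zscan4f, SE 0.95), with a median of 0.45, against -0.08 over all genes tested. Their 95% intervals all held 0 and were up to several units wide, as for Zscan4b at -2.85 to 4.95, so sizeable changes were not detectable at this precision.

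From G1 to G2 zygotes, the step in which the minor wave of genome activation is known to take place, the members' values were mostly above 0. In C57BL/6J 0 of 5 rose or fell by the authors' adjusted p, and 1, Zscan4c, had an unadjusted p under 0.05. The background was 5.01% of 13264 tested genes higher and 2.87% lower. The authors' deposited table gave Zscan4c a log2 fold change of 2.78 (SE 1.26, p = 0.0278, adjusted p = 0.184, DESeq2), and 7.41% of tested genes had a higher one. Zscan4a and Zscan4f both stood at 1.01 in the authors' deposited table (SE 0.77 and 0.94), and Zscan4d at -0.05 (SE 1.27).

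In B6CASTF1 the same step brought 3 of 5 members past the threshold upwards and 0 downwards, against 9.63% of 14668 tested genes higher and 9.63% lower. Zscan4f rose by a log2 fold change of 2.57 in the authors' deposited table (SE 0.51, DESeq2 adjusted p = 8.23e-06), a 5.94-fold change that 5.31% of tested genes exceeded. Zscan4d (1.79, SE 0.48, DESeq2 adjusted p = 0.00225) and Zscan4c (1.75, SE 0.66, DESeq2 adjusted p = 0.0420) rose in the authors' deposited table as well. Zscan4a had a value of 0.81 (SE 0.56) and Zscan4b of 0.33 (SE 0.89) in the authors' deposited table, neither past the threshold. The members' median was 1.75, against 0.00 over all genes tested. Only Zscan4f kept its call when the SE were raised 1.5 times.

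The step from G2 zygote to 2-cell embryo covers the major wave of genome activation, in which Zscan4 transcription is known to peak. In B6CASTF1 5 of 5 members rose and 0 fell, against 33.1% of 16128 tested genes higher and 26.8% lower. The authors' deposited table gave log2 fold changes of 2.67 for Zscan4f (SE 0.56, DESeq2 adjusted p = 5.23e-06) and 2.56 for Zscan4a (SE 0.62, DESeq2 adjusted p = 8.30e-05). The other 3 rose by 2.63 (Zscan4c, SE 0.72), 2.42 (Zscan4b, SE 0.99, the largest adjusted p of the 5 at 0.0254 by DESeq2) and 1.90 (Zscan4d, SE 0.54) in the authors' deposited table. Against other genes these sizes were ordinary for the stage: between 29.2% (Zscan4f) and 36.1% (Zscan4d) of tested genes had a higher fold change, and the median was 2.56 against 0.55 over all genes tested.

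In C57BL/6J 2 of 5 members rose at this step and 0 fell, and 3 had an unadjusted p under 0.05, with 25% of 12839 tested genes higher and 25.3% lower. By the authors' deposited table Zscan4f rose by 3.23 (SE 0.94, DESeq2 adjusted p = 0.00188) and Zscan4a by 2.52 (SE 0.77, DESeq2 adjusted p = 0.00314). Both calls were lost when the SE were raised 1.5 times (adjusted p = 0.0689 and 0.0849). In the authors' deposited table Zscan4d had a value of 2.65 (SE 1.26, DESeq2 adjusted p = 0.0679), larger than that of Zscan4a but with a wider error. Zscan4c stood at 0.86 (SE 1.26) and Zscan4b at -1.99 (SE 1.99, 95% interval -5.90 to 1.91) in the authors' deposited table. The median of the 5 was 2.52, against 0.17 over all genes tested.

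**Figure D4:**
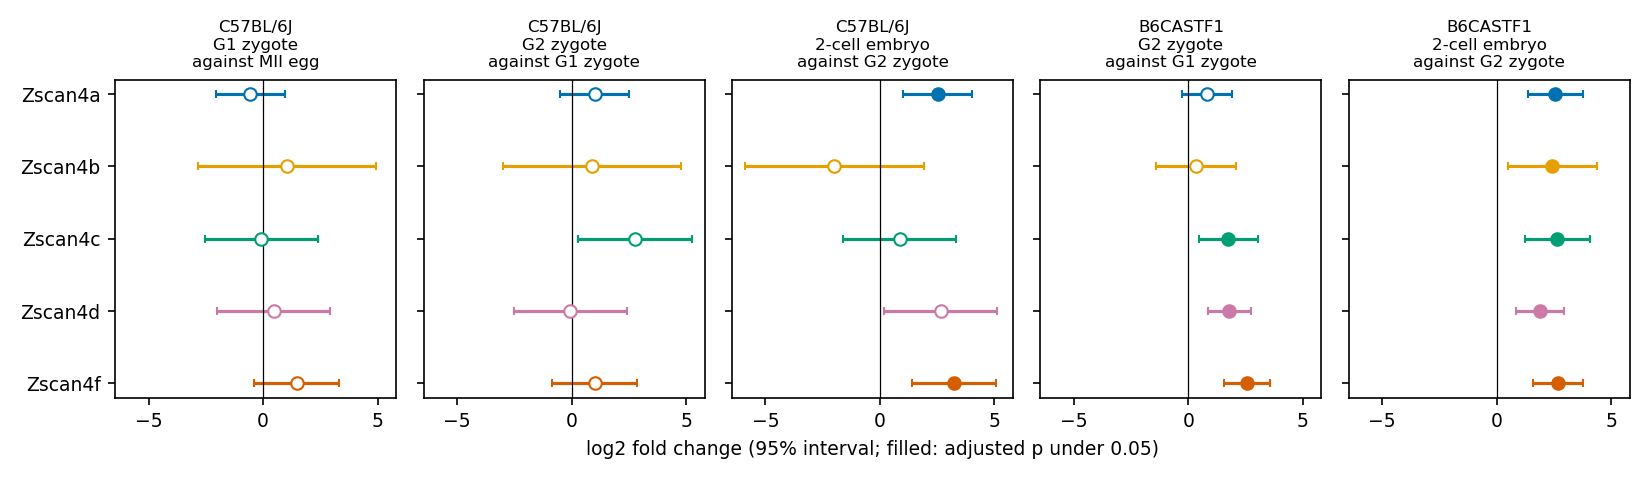
Each panel is one of the authors' 5 comparisons, with the log2 fold change of every member, its 95% interval, and a filled point where the authors' adjusted p was under 0.05. Filled points number 0, 0, 2, 3 and 5 from left to right, and the intervals of C57BL/6J are wider than those of B6CASTF1.

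Over the whole course the changes were larger than at any single step for most members. The values here were computed from the deposited fold changes with intervals from the implied spread, and no test was made. From MII egg to 2-cell embryo in C57BL/6J, Zscan4f differed by 5.70 on the log2 scale (95% interval 3.85 to 7.56), a 52.1-fold difference. Zscan4c, Zscan4d and Zscan4a differed by 3.57, 3.05 and 2.97, with intervals above 0, and Zscan4b by -0.07 (-3.99 to 3.84). From G1 zygote to 2-cell embryo the difference of Zscan4f was 4.24 in C57BL/6J (2.39 to 6.08) and 5.24 in B6CASTF1 (4.14 to 6.35). Over that interval Zscan4b differed by 2.75 in B6CASTF1 (0.81 to 4.69) and by -1.12 in C57BL/6J (-5.03 to 2.78). In the G2 zygote, Zscan4c (2.70, 0.23 to 5.18) and Zscan4f (2.48, 0.62 to 4.34) had intervals above 0 against the MII egg of C57BL/6J. The intervals of Zscan4a (-1.06 to 1.97), Zscan4b (-1.98 to 5.82) and Zscan4d (-2.08 to 2.89) held 0. At each of the steps between these stages 0 of 5 members were called.

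The strains were compared step by step through the difference of their fold changes, over 15324 genes tested in both. At the step from G1 to G2 zygote 0 of 5 members differed by adjusted p and 0 by an unadjusted p under 0.05, against 0.77% of genes higher and 0.718% lower in B6CASTF1. The differences, B6CASTF1 minus C57BL/6J, ran from -1.03 for Zscan4c (95% interval -3.82 to 1.76) to 1.84 for Zscan4d (-0.82 to 4.49). Hence the 3 calls in B6CASTF1 and 0 in C57BL/6J at this step are not shown to differ. At the 2-cell step 0 of 5 differed by adjusted p and 1 by an unadjusted p under 0.05, against 9.18% of genes higher and 3.85% lower in B6CASTF1. That member was Zscan4b, whose fold change was 4.41 higher in B6CASTF1 (0.06 to 8.77, adjusted p = 0.205 by a normal test adjusted over all genes). Zscan4a differed by 0.05 (-1.89 to 1.98) and Zscan4f by -0.55 (-2.70 to 1.59), intervals that leave room for differences of several fold either way. Strain cannot be told apart from any difference in how the samples of each strain were handled.

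The precision differed between the strains. The coefficient of variation that the deposited SE imply between samples of a group was 65.2% to 168% for the members in C57BL/6J, highest for Zscan4b and lowest for Zscan4a. In B6CASTF1 it was 40.7% (Zscan4d) to 74.4% (Zscan4b). These are the model's fitted values, which DESeq2 draws towards those of genes of similar level, and not raw spreads. Among B6CASTF1 genes with a mean within 2-fold of the member's, 95.6% had a lower value than Zscan4f (42.4% against a median of 21.4%) and 92.4% a lower one than Zscan4c (54.9% against 30.2%). The shares for Zscan4d, Zscan4a and Zscan4b were 91.2%, 87.0% and 70.6%. In C57BL/6J they ran from 44.1% (Zscan4a) and 55.4% (Zscan4b) over 59.3% (Zscan4d) and 67.8% (Zscan4f) to 82.3% (Zscan4c).

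Among 7 reported activators of Zscan4 transcription were Dppa2 and Dppa4, small DNA-binding proteins of early embryos, both called higher at the 2-cell step in both strains. Whether they rose before the cluster was not tested. In C57BL/6J 0 of 7 changed upon fertilization, Dppa4 alone rose from G1 to G2 zygotes (by 3.45 in the authors' deposited table, SE 0.81, DESeq2 adjusted p = 7.71e-04), and 4 rose and 0 fell at the 2-cell step. Those 4 were Dppa2, Dppa4, the chromatin remodeler Smarca5 and the nuclear receptor Nr5a2, with log2 fold changes of 2.92, 5.35, 1.62 and 3.11 in the authors' deposited table. Of all tested genes in C57BL/6J, 1.62% rose and 1.12% fell upon fertilization. The shares there were 5.01% and 2.87% from G1 to G2 zygotes, and 25% and 25.3% at the 2-cell step. In B6CASTF1 3 of the 7 activators rose and 2 fell from G1 to G2 zygotes, against 9.63% of all tested genes each way. Those 3 were Dppa2, Dppa4 and Dux. In the authors' deposited table Dppa2 rose by 1.33 (SE 0.20, DESeq2 adjusted p = 5.29e-10) and Dppa4 by 2.39 (SE 0.34, DESeq2 adjusted p = 4.93e-11). At the 2-cell step of B6CASTF1 5 rose and 0 fell, against 33.1% and 26.8%. Dux, a homeobox factor known to switch on Zscan4 in stem cells, rose there in the zygote by 6.15 according to the authors' deposited table (SE 1.51, DESeq2 adjusted p = 6.16e-04). Its level was 2.08 in G1 zygotes, 147 in G2 zygotes and 16.0 in 2-cell embryos of B6CASTF1, and 0.149, 28.6 and 0.475 in C57BL/6J. Its differences in C57BL/6J and between G2 zygotes and 2-cell embryos of B6CASTF1 did not pass the threshold. Nelfa and Tbx3 were the 2 that fell in B6CASTF1 zygotes. The list's medians at the 2-cell step were 2.11 and 3.26, near those of the cluster.

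Of 15 reported repressors of the 2-cell-like program, 0 changed upon fertilization (1.62% of all tested genes rose and 1.12% fell). From G1 to G2 zygotes of C57BL/6J Hdac1 and the corepressor Trim28 fell and 0 rose (2.87% and 5.01% of all tested genes). In the authors' deposited table Trim28 also fell by 2.36 (SE 0.30) at that step in B6CASTF1. There 2 of 15 rose and 2 fell (9.63% of all tested genes each way). At the 2-cell step 5 rose and 3 fell in C57BL/6J (25% and 25.3% of all tested genes) and 7 rose and 6 fell in B6CASTF1 (33.1% and 26.8%). Hdac1, a histone deacetylase, rose by 9.01 and 7.03 in the authors' deposited tables, and the maintenance methyltransferase Dnmt1 fell by 2.81 and 4.27. The medians at that step were 0.39 and 0.94.

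Genes whose proteins are reported as partners of ZSCAN4 in DNA demethylation and telomere recombination included Dnmt1, Hdac1, Kdm1a and Rif1, which are also on the previous list. Of 9 tested in C57BL/6J, 4 rose and 3 fell at the 2-cell step, and of 11 in B6CASTF1, 3 rose and 5 fell, counts too small to set apart from the shares of all tested genes (25% and 25.3%, and 33.1% and 26.8%). Uhrf1, which guides DNMT1 to replicated DNA, fell in both strains; the authors' deposited table gave -4.03 in B6CASTF1 (SE 0.20, DESeq2 adjusted p = 1.18e-88). The meiotic recombination genes split: Mlh3 rose in both strains (8.40 in C57BL/6J) and Msh4 fell in both (-10.29 and -2.02) in the authors' deposited tables. The list's medians at this step were 1.197 in C57BL/6J and -0.52 in B6CASTF1. Before the 2-cell stage 0 rose in any comparison, and 1 fell from G1 to G2 zygotes in each strain, Hdac1 in C57BL/6J and Uhrf1 in B6CASTF1. Of all tested genes, 5.01% rose and 2.87% fell at that step in C57BL/6J, and 9.63% went each way in B6CASTF1. Upon fertilization 0 of 9 rose and 0 fell, against 1.62% and 1.12% of all tested genes.

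For telomere maintenance genes, 4 of 21 tested rose and 5 fell at the 2-cell step in C57BL/6J, and 9 of 24 rose and 7 fell in B6CASTF1, with medians of 0.08 and 0.40. These shares were near those of all tested genes, 25% higher and 25.3% lower in C57BL/6J and 33.1% and 26.8% in B6CASTF1. The small nucleolar RNP proteins Nop10 (3.06 and 3.49) and Nhp2 (5.53 and 5.59), which also belong to the telomerase particle, rose in both strains in the authors' deposited tables. Terf1, a shelterin protein on telomeric DNA, was called higher upon fertilization (1.38, SE 0.28, DESeq2 adjusted p = 8.71e-05) and in B6CASTF1 G2 zygotes (2.56, SE 0.19) in the authors' deposited tables. Upon fertilization 1 of 21 rose and 1 fell (1.62% and 1.12% of all tested genes). From G1 to G2 zygotes 3 of 21 rose and 0 fell in C57BL/6J (5.01% and 2.87%). At the same step 2 of 24 rose and 1 fell in B6CASTF1 (9.63% each way).

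Other transient 2-cell genes that were called at the 2-cell step mostly rose. At the 2-cell step 16 of 23 tested rose and 0 fell in C57BL/6J (25% and 25.3% of all tested genes), with a median of 6.65. In B6CASTF1 22 of 26 rose and 1 fell (33.1% and 26.8% of all tested genes), with a median of 6.62. The corresponding medians of the Zscan4 members were 2.52 and 2.56, a difference that was not tested. Single genes of the list had smaller values, such as Sp110, which rose by 2.09 in C57BL/6J (SE 0.23) in the authors' deposited table, and Tcstv1 was the 1 that fell in B6CASTF1. In MII eggs of C57BL/6J, 11 of the 27 measured genes of this list had a level under 1. At least 10 was reached by 7 of them, up to 5785 for Sp110. The lowest Zscan4 member stood at 17.2. Zfp352, a zinc finger gene of the 2-cell embryo, was at 10.3 in the egg and rose by 4.11 (SE 0.62) at the 2-cell step in the authors' deposited table. From G1 to G2 zygotes 2 of 23 rose in C57BL/6J and 5 of 26 in B6CASTF1, with 0 lower. All tested genes gave 5.01% higher and 2.87% lower in C57BL/6J, and 9.63% each way in B6CASTF1. Upon fertilization 1 of 23 rose and 0 fell, against 1.62% and 1.12% of all tested genes.

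Of other genes with a SCAN domain, the dimerization domain of ZSCAN4, 4 of 21 tested rose and 6 fell at the 2-cell step in C57BL/6J, and 7 of 28 rose and 9 fell in B6CASTF1. All tested genes gave 25% and 25.3% in C57BL/6J and 33.1% and 26.8% in B6CASTF1, close to these shares. The authors' deposited table for B6CASTF1 had Zscan5b up by 7.19 (SE 0.39, DESeq2 adjusted p = 2.96e-73). The medians of this list were 0.51 and 0.59. At the earlier steps 0 of 21 changed in C57BL/6J. Of all tested genes there, 1.62% rose and 1.12% fell upon fertilization, and 5.01% and 2.87% from G1 to G2 zygotes. In B6CASTF1 zygotes 1 of 26 rose and 1 fell (9.63% of all tested genes each way).

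The annotation placed 81 genes other than Zscan4 within 500 kb of the cluster, many of them vomeronasal receptor genes and pseudogenes, and 12 of these were analysed. At most 3 of them were tested in any comparison, and 0 rose. Of all tested genes, 25% rose at the 2-cell step in C57BL/6J and 33.1% in B6CASTF1. At the 2-cell step Nlrp4b, an NLR gene of the oocyte, had log2 fold changes of -4.71 in C57BL/6J (SE 0.63) and -5.37 in B6CASTF1 (SE 0.29) in the authors' deposited tables, both called lower. Zik1, a zinc finger gene, fell at the same steps. Thus 2 of 2 tested neighbours fell in C57BL/6J and 2 of 3 in B6CASTF1. These are too few to set against the 25.3% and 26.8% of all tested genes that fell. At the earlier steps 0 of 3 were called in C57BL/6J and 0 of 2 in B6CASTF1. Of all tested genes, 1.62% rose and 1.12% fell upon fertilization. From G1 to G2 zygotes the shares were 5.01% and 2.87% in C57BL/6J and 9.63% each way in B6CASTF1.

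Among 8091 genes outside the family whose mean count reached 100 in each strain, the 5 whose fold changes lay closest to the members' medians over the 5 comparisons were Naa38, Snupn, Nifk, Polr3c and Psmd6. Their Euclidean distances over the 5 log2 fold changes were 0.62, 0.66, 0.72, 0.73 and 0.76. The members' own distances were larger, at 1.26 (Zscan4d), 1.38 (Zscan4a), 1.49 (Zscan4f), 2.48 (Zscan4c) and 4.77 (Zscan4b). These names depended on the measure: ranking by correlation gave 0 of the same 5 genes.

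The labelled material was checked against marker genes. All 8 egg markers were measured at a level of at least 1 in every stage. Their summed level fell from 257070 in MII eggs to 21818 in 2-cell embryos of C57BL/6J. In B6CASTF1 it fell from 267170 in G1 zygotes to 26925 in 2-cell embryos. Upon fertilization 5 of 8 fell and 0 rose (1.12% and 1.62% of all tested genes). From G1 to G2 zygotes 3 fell and 0 rose in C57BL/6J (2.87% and 5.01%). At that step 5 fell and 1, Nlrp5, rose in B6CASTF1 (9.63% each way). At the 2-cell step 1, Zp3, rose in each strain (25% and 33.1%). There 5 fell in C57BL/6J and 7 in B6CASTF1 (25.3% and 26.8%). The 10 cumulus and granulosa markers summed to 1609 in C57BL/6J MII eggs and to 302 in 2-cell embryos, and to 2581, 1430 and 1465 over the 3 stages of B6CASTF1. In C57BL/6J, Ptx3, Inha and Inhba were at 0, and in B6CASTF1 Foxl2 was at 0. The 8 sperm and testis markers summed to 25.2 to 203 over all stages, with 4 or 5 of 8 under 1. Cyp19a1 made up most of the cumulus and granulosa sums in eggs and zygotes, but not in 2-cell embryos. It stood at 1597 in MII eggs and 4.05 in 2-cell embryos of C57BL/6J. In B6CASTF1 it stood at 2122 in G1 zygotes and 24.5 in 2-cell embryos. The other 9 cumulus and granulosa markers summed to 11.2 in MII eggs and 298 in 2-cell embryos of C57BL/6J. Over the 3 stages of B6CASTF1 they summed to 460, 92.0 and 1441. Inha was the largest part of the 460, at 284 in G1 zygotes and 1.53 in G2 zygotes. Tnfaip6 (65.3 and 7.50), Ptgs2 (43.5 and 0.895) and Inhba (31.3 in G1) were also lower in G2 zygotes. Has2 (12.2 and 30.9) and Fshr (14.5 and 49.7) went the other way. From G1 to G2 zygotes 1 of 5 tested markers, Ptgs2, was called lower and 0 higher (9.63% of all tested genes each way). Most of the 2-cell sums was Amhr2, at 286 in C57BL/6J and 891 in B6CASTF1. Other markers went either way from G2 zygotes to 2-cell embryos, with Tnfaip6 higher and Fshr lower in both strains. At that step Amhr2 was called higher in both strains and Ptgs2 in B6CASTF1. These were 1 of 2 tested in C57BL/6J and 2 of 5 in B6CASTF1, against 25% and 33.1% of all tested genes. Cyp19a1 alone fell in each strain (25.3% and 26.8% of all tested genes). The part of such cells in the Zscan4 values was not tested.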

How the data were processed

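Poly(A) RNA was measured by Smart-seq2 with oligo-dT priming, per the labels' protocols. The authors' file names state DESeq2 1.18.1; the submitters' processing notes also name bcl2fastq, kallisto, TopHat, Picard and the build mm10, with no role given. The authors' tables give for each gene, per the file headers, the mean normalized count (a signal), log2 fold changes (plain with SE, and shrunken), the Wald score, the p-value and its adjusted form. The tables hold no values per sample, so depth is unknown and precision was read from the deposited SE. How reads of near-identical copies were assigned, and whether counting used strand, is not stated in those sources.

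Members and lists were chosen with earlier results of these data known. A gene was called at the authors' adjusted p under 0.05. For the strain difference, log2 fold changes were subtracted and divided by their joint SE, with a two-sided normal p adjusted by Benjamini-Hochberg over all genes tested in both strains, a procedure tested on simulated data. Stage levels came from each strain's mean count and fold changes, weighted by samples per stage. The dispersion of a gene was solved from the SE of a comparison and the levels. Solved from different tables of a strain, it had a median ratio between tables of 1.00 (5974 genes in C57BL/6J, 7496 in B6CASTF1), and it gave the intervals. Values of list genes were given for at most the 4 of smallest p per list and comparison. Levels of Dux, Zfp352, Sp110 and single marker genes were given as well. Likeness was ranked by Euclidean distance. Transcripts were compared by words of 31 bases and by global alignment of the longest transcript. Alternatives were stricter thresholds, Bonferroni, an absolute log2 fold change of at least 1, an SE raised 1.5 times, recentring, a minimum mean count of 10, shrunken fold changes and other weights. The work used numpy 2.4.6, scipy 1.17.1, pandas 2.3.3 and matplotlib 3.10.9 in Python 3.11.15.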

Additional observations from a re-analysis of the deposited data

How the results depend on the processing

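Calls depended on the threshold more than on the scaling. With Bonferroni adjustment over all genes, 0 members were called at the 2-cell step in C57BL/6J (2 by the authors' adjustment), 1 at the G2 step in B6CASTF1 (3) and 1 at its 2-cell step (5), which was Zscan4f in both B6CASTF1 comparisons. With the SE raised 1.5 times the counts were 0, 1 (Zscan4f) and 4. Both alternatives raise the bar by construction. Recentring on well-measured genes (mean count 100 or more) shifted the zero point by 0.23 and 0.21 at the 2-cell steps of C57BL/6J and B6CASTF1, and by less than 0.1 elsewhere. It turned the strain difference of Zscan4a at the 2-cell step from 0.05 to -0.086, neither past the threshold, and reversed no other value. The remaining alternatives kept every count of called members within 1.5 times and its side of 0. Weighting the B6CASTF1 2-cell group as 3 samples multiplied that strain's levels by 0.808 to 0.846, and shrunken fold changes multiplied levels of both strains by 0.920 to 1.16. No paired analysis was possible because values of single samples were not analysed here and the labels number no replicates. Leaving out each sample in turn could not be run for the same reason. The 95% intervals of the C57BL/6J fold changes span 3 to 8 log2 units, which limits what these samples can show of single members.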
